A study of Cervus nippon with 4 samples.

Results

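In Sika Deer testis, 200 genes of 629520 listed were expressed at a high level that stayed within a narrow range in the libraries of all 4 ages. They were chosen by their FPKM alone, that is, by the fragments counted on a gene relative to its length and to all mapped fragments of the library. A gene was kept when its FPKM was at least 5 in every library and its largest value was less than 1.5 times its smallest, and the 200 genes with the highest smallest value were taken. The kept genes numbered 2348, out of 10640 genes of at least 5 FPKM in all 4 libraries. The level and the narrow range were therefore set by the choice and are described below without a test. The files list genes by identifier, without names or sequences, so what these genes encode is not given here.

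The 4 mRNA libraries came from testes of Cervus nippon of the Shuangyang breed, slaughtered at 1 year (juvenile group, Tst_1), 3 years (adolescence group, Tst_2), 5 years (adult group, Tst_3) and 10 years (aged group, Tst_4). No treatment or genotype separated the groups. Each library pooled the RNA of 3 animals and each age had 1 library, so no value has a replicate error and age cannot be told apart from animal or library. The sum of FPKM lay between 820429 in Tst_3 and 870245 in Tst_1, and between 317205 and 422330 genes were listed per library. The files hold no read counts per gene, so no counting error could be set beside an FPKM. Markers of testis cell types could not be read from identifiers, and the tissue label was therefore not checked.

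The testis holds germ cells inside seminiferous tubules, Sertoli cells that nurse them, and Leydig cells between the tubules that make testosterone. When spermatogenesis begins, spermatocytes and spermatids come to fill the tubules, and the RNA of the whole organ shifts toward transcripts of germ cells. A gene can keep its level through such a shift when many cell types transcribe it, and genes of that kind are commonly sought as internal controls in Q-PCR. In RNA of whole tissue, fewer cells of a type and less RNA per cell cannot be told apart, and FPKM is a share of the library rather than an amount per cell.

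The 200 genes were well above the usual level of a listed gene. Their FPKM in Tst_1 had a median of 60.19 and ran from 36.83 to 1087.59. In Tst_2 the median was 62.33, with a range from 36.71 to 1035.05. In Tst_3 it was 61.365, between 36.79 and 1041.48, and in Tst_4 it was 62.36, between 37.2 and 1033.76. The 4 distributions lay on each other, as the choice required, whereas the median of all listed genes was between 0.30 and 0.37 FPKM. The members' share of all FPKM was lowest in Tst_1 and Tst_4, at 2.36%, then 2.40% in Tst_2 and highest in Tst_3, at 2.53%. By their smallest value, 157 members were below 100 FPKM, 43 were at or above it, 13 reached 200 FPKM and 3 reached 500 FPKM.

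An equal FPKM did not mean an equal place in the library. The median rank of the members, counted from the most highly expressed gene, was 1167.5 in the juvenile library, against 1748.0 in Tst_2, 1620.0 in the adult library and 1752.5 in the aged library. Among the 1000 genes with the highest FPKM there were 84 members in the juvenile library, whereas Tst_2 had 58, Tst_3 had 62 and Tst_4 had 54. More genes thus stood above the members in the later libraries than in Tst_1.

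**Figure D1:**
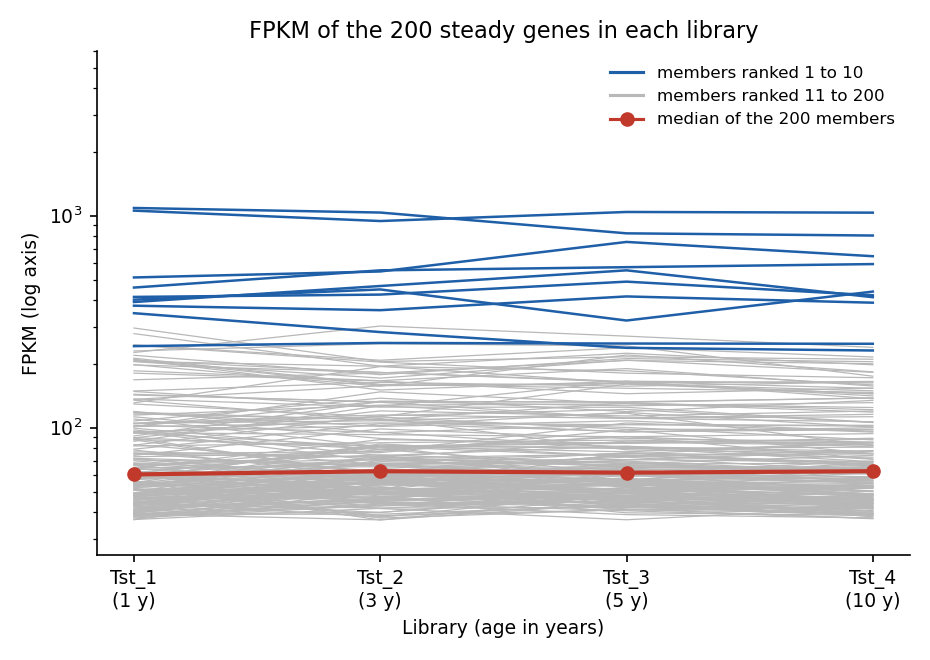
FPKM on a log axis of each of the 200 members in the 4 libraries, with 1 line per gene, the first 10 members in blue and the median in red. The lines run nearly level, because genes with a larger range were not taken, and the median moves only between 60.19 and 62.36 FPKM.

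The member with the highest smallest value was c686751_g4, with values of 1056.69, 943.84, 1041.48 and 1033.76 FPKM from the youngest to the oldest library. The next, c639607_g1, had 1087.59, 1035.05, 825.76 and 806.34 FPKM in the same order. The former was lowest at 3 years, while the latter fell at each step from 1 to 10 years within the allowed range. Gene c639946_g1 had the opposite course, with 458.18, 552.45, 571.77 and 591.29 FPKM. A peak in the adult library was seen in c654797_g7, with 413.98, 424.51, 488.63 and 421.38 FPKM, and in c640714_g2, with 391.63, 466.02, 552.46 and 412.69 FPKM. In c632401_g3 the adult library was instead the lowest, at 320.31 FPKM against 401.83 in Tst_1, 448.96 in Tst_2 and 438.59 in Tst_4. The remaining genes of the first 10 were c686626_g12 and c686626_g10, described below with their cluster, c676048_g1 and c546298_g1. These 10 genes held between 0.607% and 0.665% of all FPKM.

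Within the limit, the members differed in how closely their 4 values lay together. The largest over the smallest value had a median of 1.32 and ran from 1.0206 to 1.4996, with quartiles at 1.23 and 1.41. It was under 1.1 in 10 members. The smallest ratio belonged to c682585_g1, at 64.85, 65.43, 65.1 and 64.11 FPKM by age. At a higher level, c676048_g1 had 242.52, 251.04, 249.48 and 248.82 FPKM, a ratio of 1.0351. Next came c665217_g3 with 101.26, 105.3, 103.3 and 102.6 FPKM, c676980_g2 with a ratio of 1.0438 and c671375_g4 with a ratio of 1.0661. The highest value of these 5 genes was in Tst_2 for the first 3, in Tst_1 for c676980_g2 and in Tst_3 for c671375_g4.

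At the other end, the ratio of c546298_g1 was 1.4996, with 346.88, 282.57, 238.07 and 231.31 FPKM from the youngest to the oldest library. Gene c679345_g1 likewise fell at each step, from 61.79 and 60.38 to 53.49 and 41.27 FPKM. In c684170_g1 the juvenile library alone was high, at 87.63 FPKM against 59.62, 60.66 and 58.72. The widest ratios thus held both gradual and single-library differences. Gene c675202_g1 was higher in the older pair of libraries, with 51.09, 51.33, 76.31 and 66.81 FPKM, and c658554_g6 was high in Tst_2 and Tst_4, with 42.69, 60.03, 49.69 and 63.85 FPKM.

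Both limits of the choice cut through a continuous range. The last members by rank were c675474_g2, c684933_g2 and c683710_g5, whose smallest values were 36.79, 36.74 and 36.71 FPKM. The next genes were c629853_g1, c683563_g3 and c662293_g6, with smallest values of 36.62, 36.61 and 36.44 FPKM. Among genes of the same level, c674436_g2, c660484_g1 and c684866_g2 were left out with ratios of 1.5014, 1.503 and 1.504, against 1.4996 for the widest member.

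**Figure D2:**
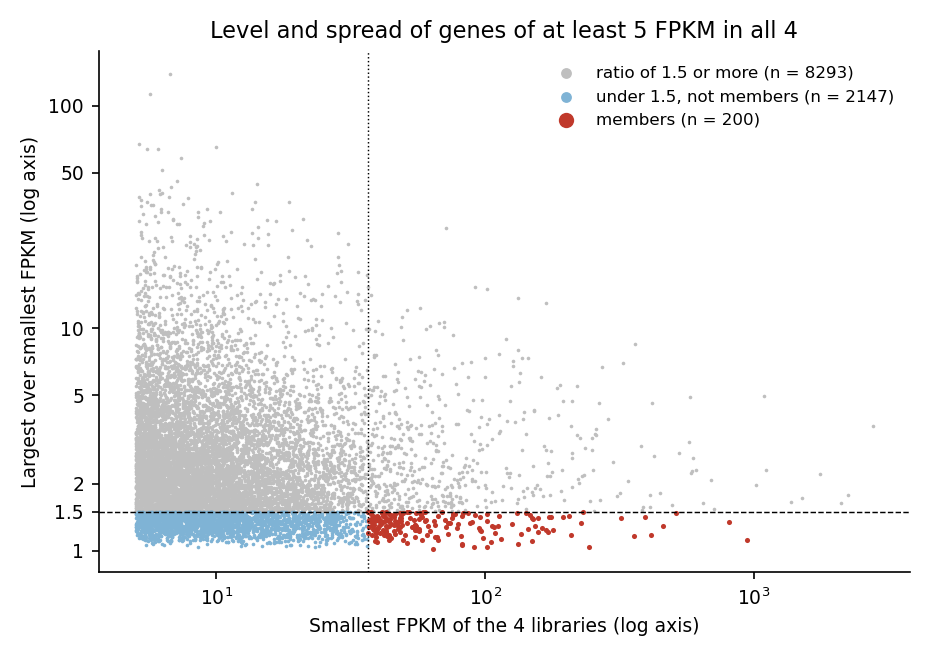
Largest over smallest FPKM against the smallest FPKM, both on log axes, for the 10640 genes of at least 5 FPKM in all 4 libraries, with members in red, other genes under the limit of 1.5 in blue and the rest in grey. The members fill the corner to the right of 36.71 FPKM and under the dashed line, with no gap between them and the genes around them.

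Of the 10640 genes of at least 5 FPKM in all 4 libraries, 2348 met the limit of 1.5, which is 22.1%. The share was 18.8% among genes whose smallest value was between 5 and 10 FPKM and 24.4% between 10 and 20 FPKM. Between 20 and 40 FPKM it was 29.8%, between 40 and 80 FPKM 26.9%, between 80 and 160 FPKM 28.2%, and at 160 FPKM or more 20.4%, where 20 of 98 genes met it. These ranges were set after the data had been seen. Steady genes were thus a minority at every level and not limited to the most abundant transcripts. Of the 721 genes whose smallest value reached 36.71 FPKM, 200 were members, and the other 521 had a median ratio of 2.39, with a largest of 28.21.

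None of the members could differ more than 2-fold between a pair of libraries, since the choice used the same values. Over all genes above 0.3 FPKM in at least 1 library of the pair, with 0.1 added to each FPKM, a log2 ratio above 1 in size was found for 83.6% when Tst_2 was compared with Tst_1, for 82.0% with Tst_3 in its place and for 85.5% with Tst_4. The same share was 51.8% in Tst_3 vs. Tst_2, also 51.8% when Tst_4 was set against Tst_2, and 51.6% against Tst_3. Among genes of at least 5 FPKM in all 4 libraries it was 40.9%, 41.8% and 46.0% in the comparisons with Tst_1, in the order of age. Between the later libraries it was 2.26% for Tst_3 over Tst_2, 2.79% for Tst_4 over Tst_2 and 1.69% for Tst_4 over Tst_3. Without regard to the juvenile library, 8129 of the 10640 genes stayed within 1.5 times over the later 3 libraries, or 76.4%. Among the 521 genes of the members' level that were not members, 411 did so, or 78.9%.

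Tst_1 was at an end of the narrow range in most members, but in a smaller share than among all genes of at least 5 FPKM. Tst_1 held the highest of the 4 values in 71 members and the lowest in 83, so that it was at an end of the range in 154 members, or 77.0%, and between the later libraries in 46. Among the 521 other genes of the same level Tst_1 was at an end in 95.2%. The share was 86.5% among the 10640 genes of at least 5 FPKM and 65.8% among the 2348 genes that met the rule. The shares of the members, of the 2348 genes and of the 521 other genes come from the same values as the choice. The 521 other genes were past the limit over all 4 libraries, and 411 of them stayed within it over the later libraries. In those 411 Tst_1 was necessarily at an end, so 95.2% is not an independent comparison. The ratio of largest to smallest value over the later libraries alone had a median of 1.161 in the members, where the choice limited it. It was 1.269 in the 521 other genes and 1.295 in the 10640 genes. Gene c565221_g1 had 53.64, 53.66 and 53.57 FPKM in the later libraries and 40.87 in Tst_1. It was singled out after its values had been seen, as the member with the narrowest range after the juvenile stage.

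How often the aged library was at an end of the range depended on the scaling. On the deposited scale Tst_4 held the highest value in 16 members and the lowest in 65, whereas Tst_3 held the highest in 56 and the lowest in 18, and Tst_2 the highest in 57 and the lowest in 34. Tst_4 was lowest in 32.5% of the members and in 33.1% of the 10640 genes of at least 5 FPKM, and highest in 8% and 16.8%. The most frequent pattern on this scale was Tst_1 highest with Tst_4 lowest, in 41 members. The next were Tst_2 highest with Tst_1 lowest, in 35, and Tst_3 highest with Tst_1 lowest, in 34. FPKM fell at every step from 1 to 10 years in 28 members and rose at every step in 7. Falls at every step were 14% of the members, 25.9% of the 521 other genes and 16.2% of the 10640 genes. Rises were 3.5%, 6.14% and 7.85% in the same order. With factors from a trimmed mean over genes of at least 5 FPKM, Tst_4 was highest in 56 members and lowest in 30. With factors from a trimmed mean without this minimum, Tst_4 was highest in 71 and lowest in none. Falls at every step numbered 14 under the former factors and 0 under the latter. After scaling to the same sum of FPKM the counts were 26 highest, 59 lowest and 21 falls. No order of the ages within the narrow range can therefore be read from the deposited scale alone.

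**Figure D3:**
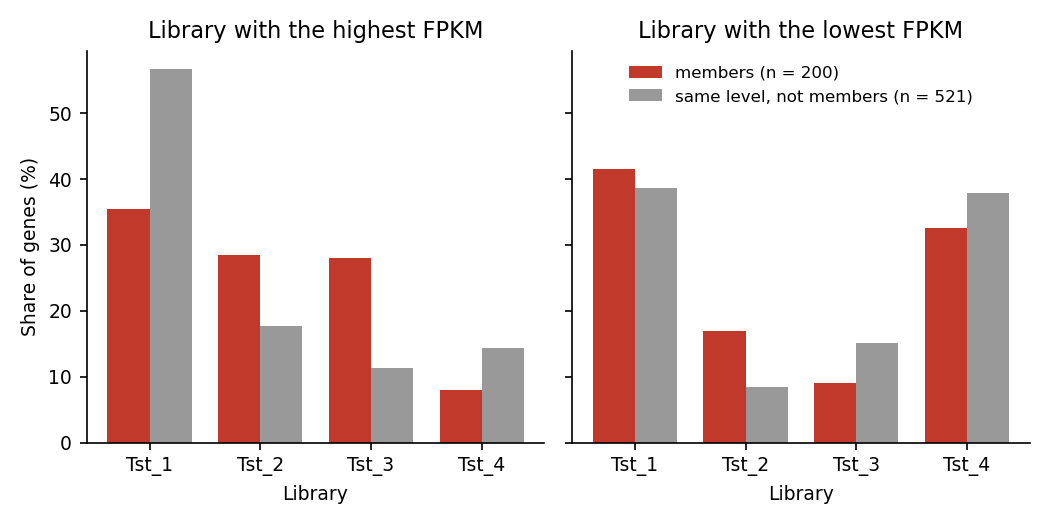
Share of genes, in percent, whose highest FPKM (left) or lowest FPKM (right) was in each library, for the 200 members in red and the 521 other genes of the same level in grey. On the deposited scale Tst_1 was the highest in 35.5% of members and 56.6% of the other genes, and Tst_4 in 8% and 14.4%. The same values separated the members from the other genes, so the contrast was partly set by the choice. Under trimmed-mean factors without the minimum of 5 FPKM, Tst_4 was highest in 71 members.

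In pairs of libraries, the choice kept every member's log2 ratio between -0.58 and 0.58 on the deposited scale. Small medians and SDs of the members therefore follow from the choice. Against Tst_1 the median log2 ratio was 0.05 for Tst_2, 0.08 for Tst_3 and -0.01 for Tst_4, with SDs over the 200 genes of 0.30, 0.31 and 0.32. For Tst_3 vs. Tst_2 it was -0.01, and for Tst_4 it was -0.07 against either of Tst_2 and Tst_3, with SDs of 0.21, 0.20 and 0.15. These SDs are a spread between genes and not an error. With trimmed-mean factors the medians against Tst_1 became 0.81 for Tst_2, 0.60 for Tst_3 and 0.76 for Tst_4. In Tst_4 vs. Tst_3, 54 members were higher and 146 lower, against 3861 higher and 6767 lower among the 10640 genes of at least 5 FPKM. The median of those genes was -0.10 in the same comparison, lower than that of the members. In Tst_4 vs. Tst_3 the 521 other genes of the members' level had a median of -0.05, higher than that of the members. Of these, 212 were higher and 308 lower. The direction of this comparison turned with the scaling: the members' median was 0.17 with trimmed-mean factors, 0.21 with median-of-ratios factors and 0.03 with trimmed-mean factors over genes of at least 5 FPKM, and -0.10 after scaling to the same sum. The comparisons share libraries and are not independent of each other.

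The value of a library that had no part in the choice can be read by applying the same rule to the other 3. With Tst_1 left out, 12489 genes met the rule in the later libraries, and 2348 of them, or 18.8%, also met it with Tst_1. With Tst_2 left out, 3155 genes met it and 74.4% of them did so in all 4. The numbers were 2824 and 83.1% without Tst_3, and 3151 and 74.5% without Tst_4. Genes steady from 3 to 10 years thus differed mostly at 1 year. Genes steady with the juvenile library included mostly kept their level in the library left out. That choice still held the other later libraries, which were alike in most genes. Of the 10640 genes of at least 5 FPKM, 76.4% stayed within 1.5 times over the later 3 libraries. The shares with a later library left out can therefore not be read as a trait of the steady genes.

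The shares differed in the same way in the first 200 genes of each such choice. Leaving out Tst_2, Tst_3 or Tst_4 gave 162, 185 and 165 genes that also met the rule in the left-out library. Leaving out Tst_1 gave 14, or 7%. In that choice the FPKM in Tst_1 over the geometric mean of the later libraries had a median log2 value of -3.30, with quartiles at -8.66 and -0.03, and 45 genes were below 0.5 FPKM in Tst_1. Beyond 1.5 times, 142 genes were lower in Tst_1 and 37 were higher, up to a log2 value of 2.66. The genes taken without Tst_1 were more highly expressed, with a smallest value of at least 188.53 FPKM in the later libraries. At the members' own level of at least 36.71 FPKM in the later libraries, 213 of 2135 genes, or 9.98%, met the rule with Tst_1 as well. With Tst_2 left out the share was 81.9%, with Tst_3 left out 92.6% and with Tst_4 left out 84.6%. The first 200 genes taken without Tst_1 had 14 genes in common with the 200 members, which is 7% of either list. Every other member had a value under 188.53 FPKM in a later library and could not be in that list. The overlap was therefore set by the level and shows no loss of members.

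**Figure D4:**
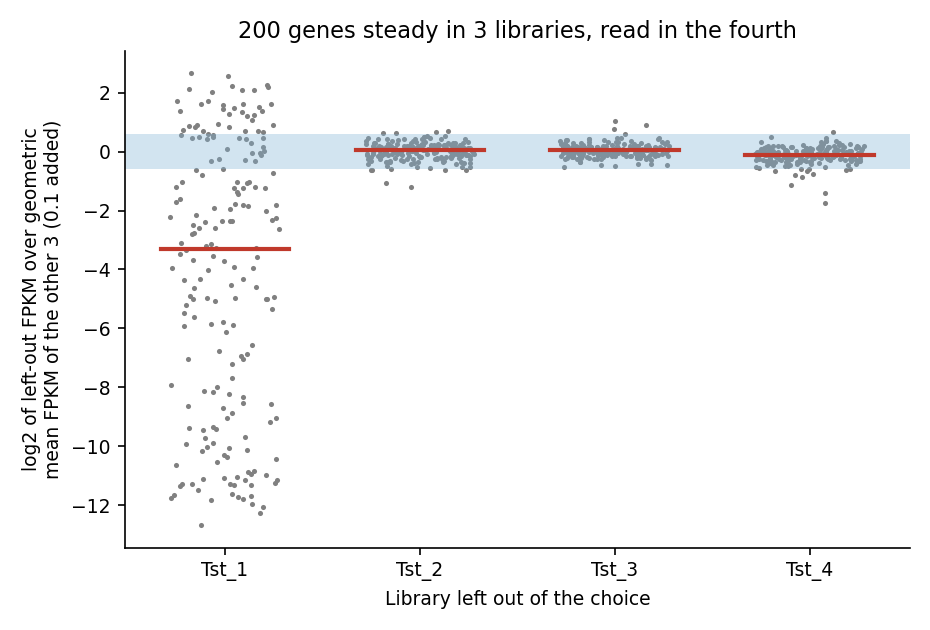
log2 ratio of the FPKM in a left-out library to the geometric mean FPKM of the other 3, with 0.1 FPKM added, for the first 200 genes chosen on those 3, with 1 point per gene, the median as a red line and the range of 1.5-fold either way as a blue band. With Tst_1 left out 142 genes lie below the band and 37 above it, around a median of -3.30, whereas with Tst_2, Tst_3 or Tst_4 left out the medians were 0.05, 0.04 and -0.10.

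The identifiers have a cluster number after the letter c and a gene number after the letter g, and several identifiers can share a cluster number. What a shared number stands for is not stated in the sources used here, and identifiers of 1 cluster may share sequence and reads, so their values are uncertain. The 200 members fell into 199 clusters, and 29 members were the single identifier of theirs. The clusters of the others held 635 further identifiers, most of them low: 356 never reached 1 FPKM, and 27 reached 36.71 FPKM in at least 1 library. Cluster c686626 held the single pair of members.

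Cluster c686626 was the largest among the members, each of its pair having 15 other identifiers. Its member c686626_g12 had 511.36, 545.76, 752.15 and 644.1 FPKM in the order of age. The other member, c686626_g10, had 376.3, 358.38, 416.11 and 388.77 FPKM. Both were highest in the adult library. The most abundant identifier of the cluster, c686626_g6, had 3446.76, 2108.65, 2620.15 and 2278.31 FPKM, and it missed the limit with a ratio of 1.6346. It was highest at 1 year, unlike the members beside it. Another, c686626_g1, had 278.59, 254.26, 383.27 and 335.55 FPKM and a ratio of 1.5074. The remaining member named for its large cluster was c677520_g6, with 51.11, 38.17, 43.61 and 39.03 FPKM and 11 other identifiers.

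Identifiers that shared a cluster with a member mostly did not share its narrow range, as was the case for most genes of at least 1 FPKM. Of the 635, 115 had at least 1 FPKM in all 4 libraries, and 11 of these, or 9.57%, stayed within 1.5 times. The share was 15.1% for the identifiers that shared a cluster with the 521 other genes, and 12.7% over all 32333 genes of at least 1 FPKM in all 4 libraries. The difference between 9.57% and 15.1% was partly set by the choice. At 36.71 FPKM or more in all 4 libraries, an identifier counted beside a member was past the limit, or it would be a member. Beside the 521 other genes such an identifier could only be a member, and so within the limit. Among the 115, 73 were more than 1.5 times as high in Tst_1 as the geometric mean of the later libraries, and 14 were lower by that factor. These were 63.5% and 12.2%, against 45.7% and 26.1% over all genes of that level, and 62.6% were higher beside the 521 other genes. A higher value at 1 year was thus as frequent beside the other genes of the same level as beside the members.

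A few clusters, picked out after their values had been seen, show how far identifiers could part. In cluster c684575 the member c684575_g6 had 40.79, 53.93, 55.73 and 50.15 FPKM. Its neighbour c684575_g7 rose from 0.94 FPKM in Tst_1 to 103.06, 95.37 and 130.5, and c684575_g2 fell from 35.74 FPKM to 0.33, 0.86 and 0.73. In cluster c643436 the member c643436_g4 had 210.01, 150.6, 165.75 and 162.57 FPKM, while c643436_g1 fell from 56.86 to 13.6, 10.57 and 5.75 FPKM. In cluster c674229 the identifier c674229_g3 was within the limit like its member c674229_g7, at 9.23, 9.93, 9.6 and 9.76 FPKM against 43.68, 63.78, 52.37 and 47.56.

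**Figure D5:**
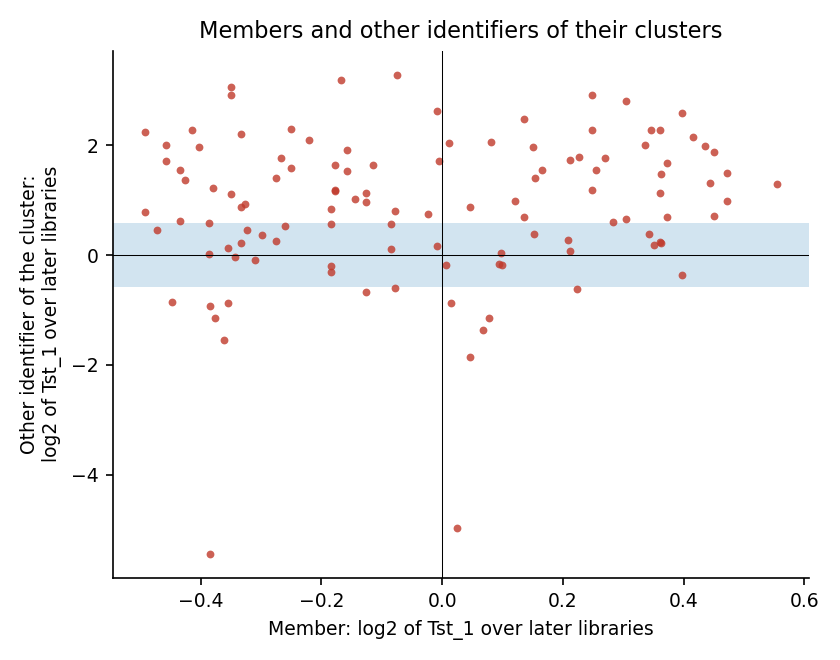
log2 ratio of FPKM in Tst_1 to the geometric mean of the later libraries, for 115 identifiers of at least 1 FPKM that share a cluster with a member (vertical) against the member (horizontal, the mean of both members in c686626), with 1.5-fold either way as a blue band. Members stay between -0.54 and 0.55, while 73 of the 115 identifiers lie above the band and 14 below it.

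Whether the members are steady depended on the scale used between libraries. FPKM as deposited relies on the total of each library, and by sums of FPKM the libraries differed little, so that 2560 genes met the rule after each library was scaled to the same sum. Factors from a trimmed mean of log2 ratios used genes of any level listed in both the library and Tst_1. They placed Tst_2, Tst_3 and Tst_4 at -0.76, -0.53 and -0.77 relative to Tst_1. For Tst_2 and Tst_4 this is more than the log2 width of the limit. After division by these factors 40 of the 200 members met the rule. After median-of-ratios factors, from genes listed in all 4 libraries, 31 did. The members' median log2 ratio against Tst_1 then became, by the trimmed mean, 0.81 for Tst_2, 0.60 for Tst_3 and 0.76 for Tst_4. A trimmed mean over genes of at least 5 FPKM in all 4 libraries, chosen after the data had been seen, gave factors of -0.03, 0.01 and -0.10 relative to Tst_1, and 183 members were again among the first 200. The members were thus steady on the deposited scale and on scales set by library totals or well-expressed genes. Most were not steady on scales set by genes of any level that were listed in the libraries compared.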

How the data were processed

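Total RNA of testes from 3 animals per age was pooled for each mRNA library and sequenced on an Illumina HiSeq2500. The authors deposited 1 list of identifiers and FPKM per library. How reads were aligned and counted, and on which assembly, is not given in the sources used here. Ages were taken from the labels. The lists were joined by identifier, and missing genes were set to 0. With 1 library per age no test was run. FPKM was used as deposited, and log2 ratios used a pseudocount of 0.1 FPKM. Trimmed-mean factors used genes listed in both the library and Tst_1, and median-of-ratios factors those listed in all 4 libraries. Trimmed-mean factors trimmed 30% of the log2 ratios and 5% of the mean levels from either side. Factors were centred on a log2 mean of 0.

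The members, lists and comparisons were chosen with earlier results of these data known. Genes were named by a rule: the first 10 members, the 5 smallest and 5 largest ratios, the last 3 members and the next 3 genes, the 3 nearest ratios not under 1.5, and the 3 members with most other identifiers. Others were picked afterwards, as stated. The code of the rule was run on simulated data in which planted genes lay within the limit and all others past it. This checked the code, and not how counting error moves a gene near the limit. Calculations used Python 3.11.15, numpy 2.4.6, pandas 2.3.3 and matplotlib 3.10.9.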

Additional observations from a re-analysis of the deposited data

How the results depend on the processing

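The number of genes meeting the rule, 2348, became 4112, 1270 and 530 at a minimum of 1, 10 and 20 FPKM, and 681 at a limit midway between 1 and 1.5 and 4921 at a limit of 2. It stayed within 1.5 times under all 4 scalings, and leaving out 1 library gave 2824 to 12489, the highest without Tst_1. Of the 200 members, 63 met the midway limit, 40 met the rule under trimmed-mean factors and 31 under median-of-ratios factors. The first 200 genes under these factors shared 40 and 31 genes with the members, 194 when ranked by the geometric mean, and 14 to 184 when 1 library was left out, with 14 without Tst_1. These 14 were all the members that reached the level of the list taken without Tst_1. The members with Tst_1 at an end of the range numbered between 147 and 200 under the scalings. Members with Tst_4 highest numbered 16 as deposited and 26 to 103 under the scalings, an alternative added after seeing the data.

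The share of all genes past a log2 ratio of 1 became 32.4%, 32.8% and 34.9% in the comparisons of Tst_2, Tst_3 and Tst_4 with Tst_1 at a pseudocount of 1, and 16.4%, 16.5% and 17.5% in Tst_3 vs. Tst_2, Tst_4 vs. Tst_2 and Tst_4 vs. Tst_3. Among genes of at least 5 FPKM it became 40.9%, 41.8%, 46.0%, 2.26%, 2.79% and 1.69% in the same order. Identifiers in the members' clusters that met the limit were 5.91% at a minimum of 0.3 FPKM and 17.3% at 5 FPKM. Over all genes of at least 5 FPKM in all 4 libraries the share was 22.1%. The cause was not tested. No paired analysis was possible because a single library was made per age. Without read counts per gene, how far counting error moves a ratio near 1.5 was not computed.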
